A study of Rattus norvegicus with 80 samples.

Results

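Mammary adipocytes of PS and IFPS rats, 2 of the 3 Nf1-mutated lines of the series, were compared with mammary adipocytes of wildtype rats. The comparison took the 3 PS and 3 IFPS libraries together against the 3 wildtype libraries, chosen by their tissue and genotype labels, and each line was also set against wildtype apart. These are 9 of the 80 libraries and 3 of the 19 groups of the series. The labels give the genotypes only as wildtype, PS and IFPS. They do not spell out the alleles behind these names, nor age, litter or whether each library came from its own animal, so p-values measure the spread between these libraries, which may be technical. RNA was taken from mature adipocytes with Trizol. By the series text, normal cells were obtained by flow sorting, while the extraction protocol speaks of cultured epithelial cells and fibroblasts, and the labels do not reconcile these accounts.

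Nf1 encodes neurofibromin, a GTPase-activating protein that turns Ras off, so that loss of Nf1 function leaves more Ras in its active form and raises signaling through the ERK kinases. White adipocytes store triglyceride in a single large droplet and release fatty acids and adipokines. In the mammary gland they fill most of the fat pad, and they surround the epithelial ducts together with fibroblasts, vessels and immune cells. ERK activity in preadipocytes is known to act on adipocyte differentiation, and the title of the series names restricted adipocyte differentiation in Nf1 deficiency as its subject.

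The deposited counts carry Ensembl rat gene identifiers with no symbols, and none of the 32883 identifiers matched a symbol in the reference table at hand. The level of Nf1, the adipocyte markers that would check the label of the cells, and all 44 lists of named genes were therefore not analysed here. Genes are described below in groups, by how their levels differ between wildtype tissues, and 4 identifiers are given with their values.

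Total counts per library ranged from 24.4e6 to 34.7e6, and 17109 to 18051 genes had at least 1 count. The 10 most abundant genes held 7.20% to 9.42% of the counts. Libraries of one line resembled each other least in wildtype, where the median Spearman correlation across genes was 0.989, against 0.992 within PS and 0.994 within IFPS. The first principal component held 33.2% of the variance. On it wildtype replicate 1 lay at -7.44 and the other wildtype libraries at -31.5 and -46.1, while the PS libraries lay between 18.9 and 26.6 and the IFPS libraries between -2.04 and 12.1. No wildtype library lay within the range of PS or IFPS on this axis, and wildtype replicate 1 was the nearest to them. No 2 libraries of a line agreed within sampling noise, so each counted as 1 replicate.

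Adipocytes of PS and IFPS rats together differed from wildtype mainly by genes of low level that were lower in the mutated lines. Of 13577 genes tested, 311 passed an adjusted p of 0.05 in the quasi-likelihood test of edgeR. Of these 264 were lower in PS and IFPS (1.94% of genes tested) and 47 were higher (0.346%). The lower genes had a median log2 fold change of -1.77 (range -4.62 to -0.303), against -0.00759 over all genes tested, and 215 of them changed by over 2-fold and 97 by over 4-fold. The higher genes had a median log2 fold change of 0.479 (range 0.296 to 3.10), and 33 of the 47 changed by less than 1.5-fold. In 248 of the 264 lower genes all 6 mutated libraries lay below all 3 wildtype libraries, an order that 4.32% of all tested genes showed. In 38 of the 47 higher genes all 6 lay above, an order shown by 2.73% of all tested genes.

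How many genes passed depended on single wildtype libraries. Without wildtype replicate 1 the count was 783, of which 255 were higher. Without wildtype replicate 2 it was 37, and without wildtype replicate 3 it was 39. Leaving out PS replicate 1 gave 175, PS replicate 3 gave 110, IFPS replicate 1 gave 172 and IFPS replicate 3 gave 99. When the 3 IF libraries joined the fit, 157 genes passed, of which 6 were higher and 151 lower. Of the 264 lower genes, 23 passed in all 9 fits that left out a library, and of the 47 higher genes 1 did. No gene of either set changed sign in any of the 15 alternatives. These fits reuse the libraries that chose the genes, so a change of sign was unlikely from the start.

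**Figure D1:**
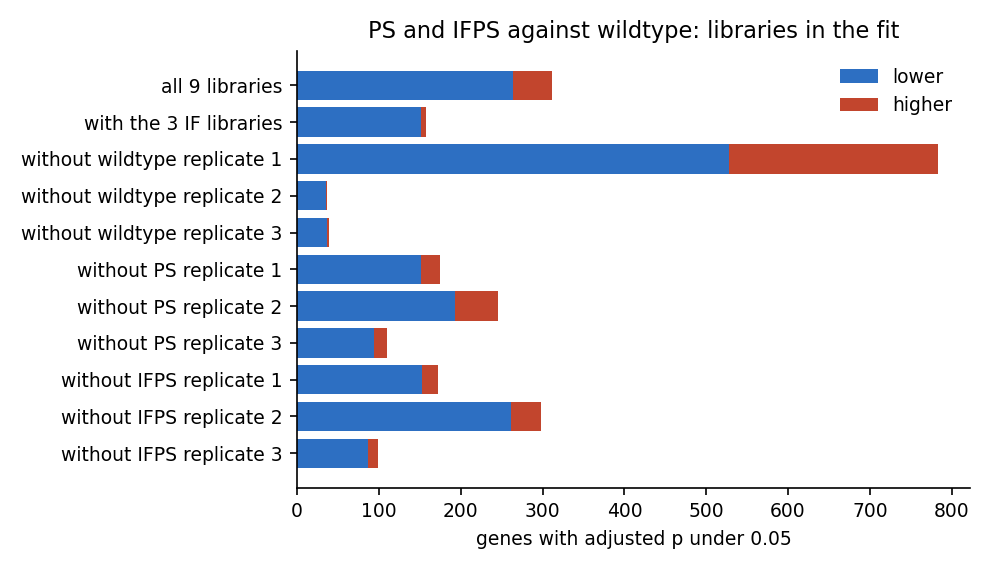
Number of genes with an adjusted p under 0.05 for PS and IFPS together against wildtype adipocytes (x axis), lower in blue and higher in red, for the fit of all 9 libraries, the fit with the 3 IF libraries added and the 9 fits that leave out 1 library each (y axis). The count is 783 without wildtype replicate 1 and 37 and 39 without wildtype replicates 2 and 3.

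Lower and higher genes sat at different levels. A level in CPM divides a gene's count by its library's TMM-scaled total. The median of the mean level over the 9 libraries was 3.13 CPM for the lower genes, 109 CPM for the higher genes and 18 CPM for all genes tested. That mean includes the mutated libraries, so a fall in them moves a gene to a lower level and a rise to a higher one. The filter on low counts asks for enough counts in as many libraries as a group holds. A gene could thus be tested through wildtype alone. How far this made the split was not tested. Among 1768 genes under 1 CPM, 55 were lower (3.11%) and 0 higher. Between 1 and 10 CPM, 151 of 3554 were lower (4.25%) and 3 higher. Between 10 and 100 CPM, 56 of 6340 were lower (0.883%) and 19 higher (0.300%). Above 100 CPM, 25 of 1915 were higher (1.31%) and 2 lower (0.104%), so calls in this range were mostly upward.

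**Figure D2:**
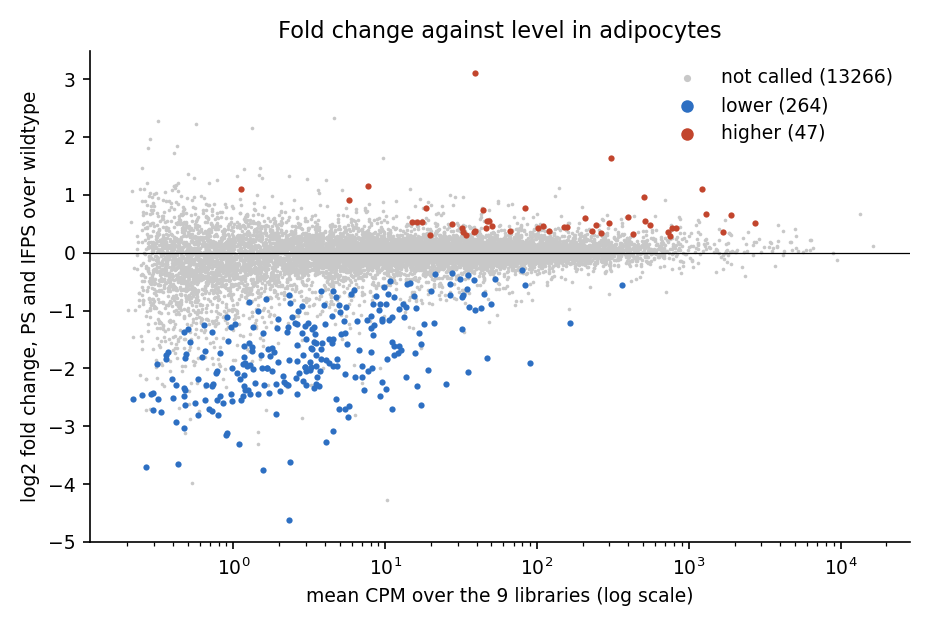
Each point is 1 of the 13577 genes tested, with its mean CPM over the 9 adipocyte libraries on a log x axis and its log2 fold change, PS and IFPS over wildtype, on the y axis. The 264 lower genes (blue) lie mostly below 10 CPM and below a log2 fold change of -1, and the 47 higher genes (red) lie mostly above 10 CPM and close to the axis.

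Values of each line apart are descriptions here, since the genes were chosen on the mean of both lines and both were set against the same 3 wildtype libraries. The lower genes had a median log2 fold change of -1.89 in PS and -1.63 in IFPS. The higher genes had a median of 0.590 in PS and 0.311 in IFPS. The change was larger in PS for 184 of the lower genes and 42 of the higher ones. A difference between the lines themselves passed the test in 3 of the lower and 5 of the higher genes, where 0.177% of all genes tested did.

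Within wildtype the lower genes were not at 1 level. Their median deviation from each gene's mean over the 9 libraries, in log2 CPM, was 0.65, 1.25 and 1.35 in wildtype replicates 1 to 3. In PS it was -0.49, -0.63 and -0.63, and in IFPS it was -0.69, -0.07 and -0.49. Wildtype replicate 1 and IFPS replicate 2 thus lay nearest to the other side. The medians of the groups did not overlap, but the genes were chosen in these same libraries for being lower, so this adds no evidence. In 203 of the 264 lower genes wildtype replicate 1 was the wildtype library nearest to PS and IFPS, and in 145 wildtype replicate 3 was the farthest. The higher genes deviated by -0.25, -0.33 and -0.40 in wildtype, by 0.32, 0.23 and 0.36 in PS, and by 0.03, 0.02 and -0.03 in IFPS. For them IFPS lay between wildtype and PS in every library.

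**Figure D3:**
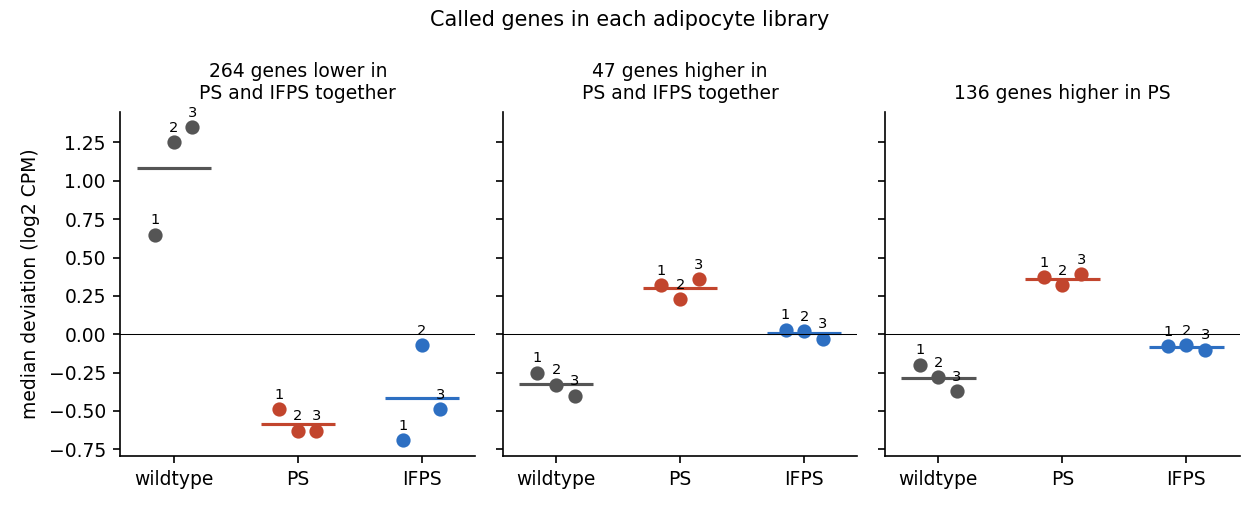
Median deviation from the gene's mean over the 9 libraries (y axis, log2 CPM) in each adipocyte library, numbered by replicate. Panels show the 264 lower genes, the 47 higher genes and the 136 genes called higher in PS against wildtype. Horizontal lines are means of the 3 libraries. The lower genes separate wildtype from both lines with a spread among wildtype libraries, and in the sets of higher genes IFPS lies between wildtype and PS. Each set was chosen in these same libraries, the last one on PS alone, which favors such an order.

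To see where the changed genes are expressed in a normal gland, every gene was classed by its level in wildtype fibroblasts, mammary epithelial cells (MECs) and whole pads, with a 4-fold difference as the limit. Pad-enriched genes lie above both fibroblasts and MECs, which by the extraction protocol had been cultured, and they were divided by their mean level over the 9 adipocyte libraries: adipocyte-high if at or above the level in pads, adipocyte-low if at least 4-fold below it. The classes were made after the data were seen, and their counts are descriptions with no test. The division of pad-enriched genes used the mutated libraries too. A gene lower in them thus falls more readily into the adipocyte-low part, and a higher one into the adipocyte-high part. How far this made the counts of those parts was not tested. Of pad-enriched genes with a low level in adipocytes, 69 of 382 tested were lower in PS and IFPS (18.1%) and 0 higher, with a class median log2 fold change of -0.46. Without wildtype replicate 2 or 3, 6 and 9 genes of this class were lower, 26 without PS replicate 3, 21 without IFPS replicate 3 and 44 with IF in the fit. Of MEC-enriched genes, 67 of 650 were lower (10.3%) and 3 higher, with a class median of -0.23. Leaving out wildtype replicate 2 or 3 gave 15 lower MEC-enriched genes each time, and 25 to 38 were lower without PS replicate 1 or 3 or IFPS replicate 1 or 3 or with IF in the fit. Fibroblast-enriched genes were lower in 17 of 402 (4.23%) and higher in 4. Of genes with no 4-fold difference 98 of 11563 were lower (0.848%) and 37 higher, and the lower count was 13 and 11 without wildtype replicates 2 and 3 and 292 without wildtype replicate 1. It was 32 to 65 without any 1 PS library, without IFPS replicate 1 or 3, or with IF in the fit. Pad-enriched genes with a high level in adipocytes were lower in 2 of 236 (0.847%) and higher in 3 (1.27%), with a class median of 0.09.

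The pad-enriched, adipocyte-low class holds 26.1% of the lower genes and the MEC-enriched class 25.4%. The 918 genes of the pad-enriched, adipocyte-low class took together 0.148%, 0.200% and 0.170% of the counts in the wildtype adipocyte libraries, 0.0968%, 0.106% and 0.0985% in PS, and 0.0805%, 0.139% and 0.104% in IFPS. All 6 mutated libraries lay below all 3 wildtype libraries. The class was cut on the level in these same libraries, which can favor this order. In wildtype whole pads the same genes took 2.01% to 3.29% of the counts. In the adipocytes of the IF line, which are outside this comparison, the share was 0.965%, 0.414% and 0.973%, above all 9 libraries. In bulk RNA, fewer cells of a type and less RNA per cell cannot be told apart, and the part that cells other than adipocytes have in the lower genes was not tested.

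The shares of the other classes differed less between lines. MEC-enriched genes took 3.59% to 4.88% of the counts in wildtype, 3.95% to 5.01% in PS and 4.88%, 5% and 4.90% in IFPS, so the summed share of that class was not lower in the mutated lines even though 67 of its genes were. Fibroblast-enriched genes took 5.03% to 5.85% in wildtype, 5.22% to 5.48% in PS and 5.35% to 5.40% in IFPS. Pad-enriched, adipocyte-high genes took 8.45%, 6.86% and 6.07% in wildtype, 7.97%, 9.56% and 7.59% in PS and 6.92%, 7.43% and 7.38% in IFPS. Wildtype overlapped each line, while all PS libraries lay above all IFPS libraries. The libraries of wildtype, PS and IFPS all had a part in setting that class.

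**Figure D4:**
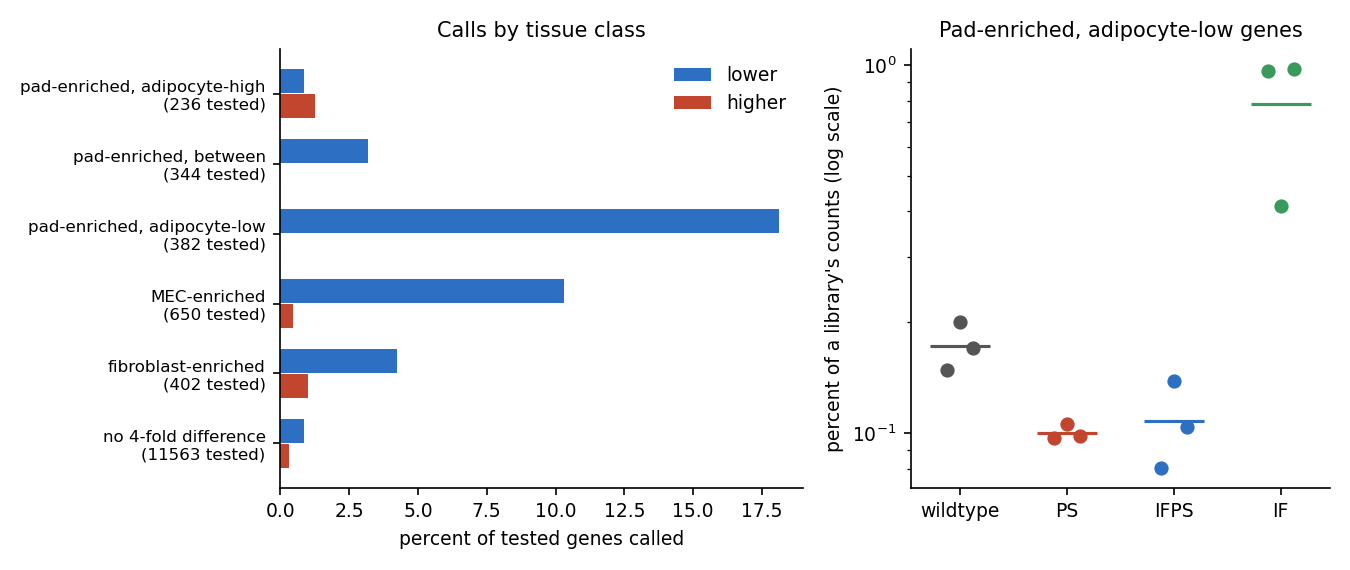
Left, percent of the tested genes of each class (y axis, with the number tested) that were lower (blue) or higher (red) in PS and IFPS together. Right, percent of a library's counts on a log axis taken by pad-enriched, adipocyte-low genes in each adipocyte library of the 4 lines, with the mean of 3 as a line. The lower calls reach 18.1% in the pad-enriched, adipocyte-low class, which was cut on the level in the wildtype, PS and IFPS libraries. Its share of counts is at most 0.139% in PS and IFPS, at least 0.148% in wildtype and at least 0.414% in IF.

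The lower genes were at a higher level in whole pads and MECs than in adipocytes. Their median level was 2.70 log2 CPM in wildtype adipocytes, 0.91 in PS and 1.10 in IFPS adipocytes, but 4.39 in wildtype pads, 3.37 in wildtype MECs and 1.98 in wildtype fibroblasts. Among these 4 wildtype tissues whole pads had the highest level for 124 of the 264 (47.0%, against 22.6% of all genes tested) and adipocytes for 26 (9.85%, against 32.2%). The higher genes went the other way. Their median level was 6.62 log2 CPM in wildtype adipocytes and 7.35 in PS, against 5.44 in pads, and adipocytes were the highest wildtype tissue for 29 of the 47 (61.7%). In IF adipocytes the median of the lower genes was 4.88 log2 CPM, and all 3 IF libraries lay above all 9 others in 221 of the 264 (83.7%, against 20.3% of all genes tested).

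In PS against wildtype adipocytes 377 genes differed by edgeR, 136 higher (1%) and 241 lower (1.78%). In all 377 the 3 libraries of each line did not overlap, as they did not in 21.2% of all genes tested. The 241 lower genes had a median log2 fold change of -1.77 in PS and -1.36 in IFPS, and 193 of them were also lower with both lines combined. The 136 higher genes had a median of 0.62 in PS and 0.18 in IFPS, and 42 of them were also higher with both lines combined. Both sets were chosen on PS, which favors a larger change in PS than in IFPS. The combined contrast holds the same PS and wildtype libraries, so these overlaps are no independent evidence. The mean level of the 136 higher genes had a median of 43.4 CPM, and 33 of the 136 changed by over 2-fold. Over the libraries they deviated by 0.32 to 0.39 log2 CPM in PS, by -0.37 to -0.20 in wildtype and by -0.10 to -0.07 in IFPS. Pad-enriched genes with a high adipocyte level gave 14 of these higher genes, 5.93% of the 236 tested in that class, and 0 lower ones. The PS libraries had a part in setting that class. The PS count was 13 without PS replicate 3, 28 without PS replicate 1, 99 without PS replicate 2, 34 without wildtype replicate 2, 66 without wildtype replicate 3, 123 without IFPS replicate 3 and 1129 without wildtype replicate 1. It was 54 with IF in the fit and 146 with only PS and wildtype. The balance of directions turned when a PS library was left out, to 17 higher and 11 lower without PS replicate 1, 57 and 42 without PS replicate 2, and 7 and 6 without PS replicate 3.

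In IFPS against wildtype adipocytes 1 gene differed by edgeR (0.00737%), ENSRNOG00000013780, which was lower. At an unadjusted p of 0.05, 1281 genes passed, 481 higher and 800 lower. The edgeR count was 0 in 6 of the 9 fits that left out a library, in which 989 to 1340 genes passed the unadjusted p. It was 2 without PS replicate 3, 43 without IFPS replicate 2 and 251 without wildtype replicate 1. With no filter on low counts 119 genes passed, and DESeq2 called 365.

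The lines were also set against each other. IFPS adipocytes differed from PS in 24 genes (0.177%), 9 higher and 15 lower in IFPS, and in all 24 the libraries of the lines did not overlap, as in 20.2% of all genes tested. The 9 higher genes had a median log2 fold change of 1.15 and the 15 lower ones of -0.90. PS differed from wildtype in 6 of the 9 and 13 of the 15, and IFPS from wildtype in 0. Of all genes tested, 1% were higher and 1.78% lower in PS against wildtype, and 0.00737% differed in IFPS against wildtype. The PS counts reuse the PS libraries that chose these genes. With so few calls in IFPS over all genes, its 0 does not place the difference in PS. The same difference between the lines can be read in other tissues, from libraries that had no part in choosing these genes. Title numbers recur across tissues, and the labels do not say whether these libraries share animals with the adipocyte libraries. Whole pads also hold adipocytes. It went the same way in fibroblasts in 16 of 21 tested (76.2%, against 53.2% of all genes). There 8 passed in the same direction and 2 in the opposite one, a share near the 39.8% of all genes that passed in fibroblasts. In MECs it went the same way in 15 of 23 (65.2%, against 52.8%), and 4 passed, where 0.0776% of all genes did. In whole pads it did so in 16 of 23 (69.6%, against 53.2%), and 0 passed, as 0% of all genes did. The 24 genes became 70 without wildtype replicate 1, 42 without wildtype replicate 3, and 5 to 10 without any 1 of the other libraries. With only the 2 lines in the fit 73 passed, and with IF added 4 did.

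The 2 identifiers of smallest p in each direction show how unlike the called genes are. ENSRNOG00000012067 had 0.920, 0.787 and 0.568 CPM in wildtype adipocytes, from 26, 23 and 19 counts. It had 109, 105 and 134 CPM in PS and 0.379, 0.478 and 0.228 CPM in IFPS. It was high in PS alone, and the IFPS libraries lay below the wildtype ones. The log2 fold change was 7.26 ± 0.20 (SE) in PS, with an adjusted p of 4.88e-07 by edgeR, and -1.05 ± 0.30 in IFPS, adjusted p 0.236. The value of 3.10 ± 0.24 for both lines together, adjusted p 0.00360 by edgeR, is the average of these 2 values. The IFPS value did not pass and rests on 11, 14 and 7 counts in the IFPS libraries. With PS and IFPS as 1 group the value was 6.26 and no longer passed, adjusted p 0.274. IFPS and PS differed by -8.31 ± 0.22, adjusted p 3.24e-07.

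The difference between PS and wildtype at this identifier was present in other cells. Its level was 7.42 ± 2.26 CPM (SD, n = 3) in wildtype and 75.5 ± 4.80 (n = 3) in PS fibroblasts, and 14.8 ± 2.16 (n = 3) in wildtype and 157 ± 16.5 (n = 3) in PS MECs. By edgeR the log2 fold change of PS over wildtype was 3.34 ± 0.22 in fibroblasts, adjusted p 3.05e-04, and 3.41 ± 0.12 in MECs, adjusted p 1.20e-06. In whole pads the wildtype libraries ranged from 11.6 to 268 CPM and the PS libraries from 17.6 to 630, and the difference did not pass, adjusted p 0.491. In IF adipocytes its level was 118, 75.4 and 87.2 CPM, near that of PS.

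ENSRNOG00000029735 had 31.8, 27.7 and 30.7 CPM in wildtype, 52.6, 61.4 and 70.5 in PS and 42.7, 39.1 and 40.2 in IFPS. None of these 3 groups overlapped, and IFPS lay in between. The log2 fold change was 0.73 ± 0.10 for both lines together, adjusted p 0.0140 by edgeR, 1.03 ± 0.11 in PS, adjusted p 0.00808, and 0.43 ± 0.11 in IFPS, adjusted p 0.144. The difference between the lines, -0.60 ± 0.11, did not pass, adjusted p 0.0813. The call for both lines together was lost without wildtype replicate 2, adjusted p 0.0596, without wildtype replicate 3, adjusted p 0.0505, with IF in the fit and with PS and IFPS as 1 group. In fibroblasts, MECs and whole pads the change of both lines together was 0.18 ± 0.14, -0.04 ± 0.10 and -0.36 ± 0.29, and none passed.

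ENSRNOG00000013780 had 104, 105 and 110 CPM in wildtype, 70.4, 73.0 and 73.4 in PS and 72.0, 71.7 and 70.8 in IFPS. Both lines lay at one level below wildtype, with a spread within each group of a few CPM. The log2 fold change was -0.57 ± 0.05 for both together, adjusted p 0.00360 by edgeR, -0.56 ± 0.05 in PS, adjusted p 0.00666, and -0.57 ± 0.05 in IFPS, adjusted p 0.0263. The value for both together stayed between -0.58 and -0.54 and past the threshold in all 15 alternatives. The call in IFPS alone was lost with IF in the fit and with only IFPS and wildtype. It was also lost without wildtype replicate 2 or 3, PS replicate 1 or 2, or IFPS replicate 1 or 3. The change of both lines together was also measured in other cells, at -0.68 ± 0.05 in fibroblasts, adjusted p 7.57e-04, and -0.50 ± 0.06 in MECs, adjusted p 0.0114. In whole pads it was -0.34 ± 0.08 and did not pass, adjusted p 0.296. A difference of the effect in adipocytes from that in each other tissue did not pass, with log2 differences of 0.07 ± 0.11, -0.07 ± 0.11 and -0.24 ± 0.10. In IF adipocytes its level was 106, 101 and 82.9 CPM.

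ENSRNOG00000019403, a MEC-enriched gene, had 5.02, 8.52 and 9.84 CPM in wildtype, 1.74, 1.35 and 1.30 in PS and 1.27, 1.84 and 1.89 in IFPS. Wildtype replicate 1 was the lowest of its group and still above all 6 mutated libraries. The log2 fold change was -2.31 ± 0.22 for both together, adjusted p 0.00851 by edgeR, -2.40 ± 0.28 in PS, adjusted p 0.0110, and -2.22 ± 0.28 in IFPS, adjusted p 0.0570. It ranged from -2.54 to -2.11 and passed in all 15 alternatives. Its level was 34.4, 15.6 and 30.3 CPM in IF adipocytes, 25.7 ± 4.51 CPM (SD, n = 6) in wildtype pads, 21.9 ± 10.4 (n = 3) in wildtype MECs and 1.70 ± 0.377 (n = 3) in wildtype fibroblasts. In those other tissues PS and IFPS together changed it by 0.39 ± 0.34, -0.00 ± 0.23 and -0.04 ± 0.12 in fibroblasts, MECs and pads, and none passed. The effect in adipocytes differed from each of them, by -2.75 ± 0.40 from fibroblasts, adjusted p 5.30e-05, by -2.32 ± 0.37 from MECs, adjusted p 1.84e-04, and by -2.29 ± 0.32 from pads, adjusted p 1.67e-05. These tests use the adipocyte libraries by which the identifier was chosen, so they are no independent evidence.

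**Figure D5:**
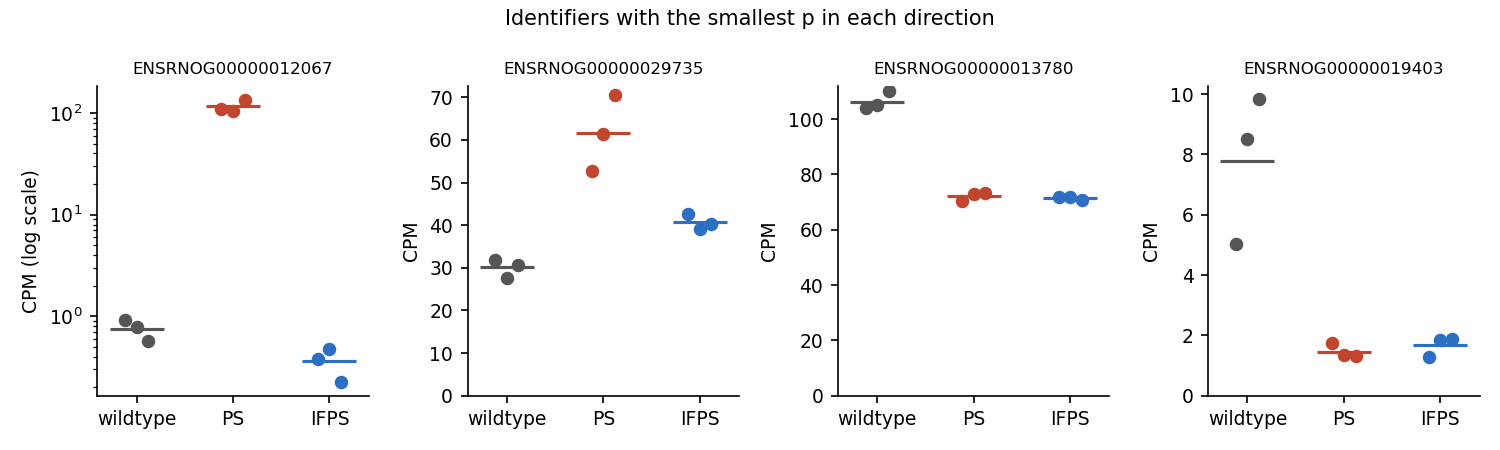
CPM (y axes, log scale in the first panel and from 0 in the others) of the 4 identifiers in each wildtype, PS and IFPS adipocyte library, with the mean of 3 as a line. ENSRNOG00000012067 is above 100 CPM in PS and below 1 CPM in wildtype and IFPS, while ENSRNOG00000013780 and ENSRNOG00000019403 are lower in both lines.

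The genes called in adipocytes were also read in the other tissues, from other libraries of the same lines. Over all genes, the change of PS and IFPS together went the same way as in adipocytes in 52.4% in fibroblasts, 49.9% in MECs and 41.0% in pads. The shares set against each percent below are instead those of all genes lower, or higher, in that tissue. Of the 264 lower genes, 213 were tested in fibroblasts, and 84 of these were lower there too (39.4%, against 50.9% of all genes). Of these 3 passed, where 0.214% of all genes did. In MECs 98 of 231 were lower (42.4%, against 52.5% of all genes). There 3 passed and 2 passed in the opposite direction, where 0.923% of all genes did. In whole pads 131 of 260 were lower (50.4%, against 50.2% of all genes), and 0 passed, as 0% of all genes did. Of the 47 higher genes 18 of 46 were higher in fibroblasts (39.1%, against 49.1% of all genes), 19 of 46 in MECs (41.3%, against 47.5%) and 15 of 47 in pads (31.9%, against 49.8%), with 1, 1 and 0 past the threshold. Of the genes called higher in PS against wildtype adipocytes, 66 of 128 were higher in PS fibroblasts (51.6%, against 48.9% of all genes). There 22 passed in that direction and 8 in the opposite one. Of the genes called lower in PS against wildtype adipocytes, 96 of 197 were lower in PS fibroblasts (48.7%, against 51.1%). There 26 passed in that direction and 14 in the opposite one. In PS fibroblasts 18.7% of all genes passed.

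Whether the effect of PS and IFPS in adipocytes differed from that in another tissue was tested in a fit of 17005 genes over the 3 lines in 4 tissues. The effect differed from that in fibroblasts in 534 genes (3.14%), from that in MECs in 404 (2.38%) and from that in whole pads in 732 (4.30%). In most of these genes the effect in adipocytes was the more negative one, in 479, 378 and 653 genes. The lower genes were among them in 163, 161 and 216 of 264 cases and the higher genes in 8, 5 and 9 of 47. Those counts use the adipocyte libraries that chose the genes and are no independent evidence. Without adipocyte wildtype replicate 1 the counts were 787, 634 and 1232, and without adipocyte wildtype replicate 3 they were 281, 201 and 319.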

How the data were processed

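RNA of the 80 libraries was sequenced as 50 bp paired-end reads from poly(A) libraries, per the labels' protocols. The deposited table holds raw counts of reads per gene, which the authors did not normalize. The submitters' processing notes name Trim Galore, STAR 2.5.2b and Rnor_6.0, with no role given. The counting tool and use of strand are not given in the sources used here, so genes that share or overlap sequence are uncertain. Groups came from the tissue and genotype labels.

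Counts of 9 adipocyte libraries were tested with edgeR 4.0.16 in R 4.3.3 (quasi-likelihood test, TMM, filterByExpr, Benjamini-Hochberg adjusted p under 0.05), with 1 coefficient per line and the mean of PS and IFPS minus wildtype as the contrast. Of the identifiers 11527 had no count in these libraries. Tissue dependence was tested over 45 libraries of adipocytes, fibroblasts, MECs and pads, with the pad set as a covariate. For log2 CPM the prior count was 2. The scripts were tested on simulated data. Alternatives used RLE factors, no filter, DESeq2 1.42.0, robust spread, other groups in the fit, a replicate block and 1 library left out.

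The comparison, the lists and the tests were chosen with earlier results of these data known. The rule for named genes asked for symbols, so in its place the 2 identifiers of smallest p in each direction are named. Title numbers do not pair adipocyte libraries across lines.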

Additional observations from a re-analysis of the deposited data

Results flagged for a closer look

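For 2 of the 4 identifiers the effect differed between lines or tissues by a test of the difference itself, with adjusted p-values from edgeR. Both were chosen by their p in the same adipocyte libraries, so these tests are no independent evidence. ENSRNOG00000012067 was lower in IFPS than in PS adipocytes by a log2 difference of -8.31, adjusted p 3.24e-07. The effect of PS and IFPS on ENSRNOG00000019403 was more negative in adipocytes than in fibroblasts by -2.75, adjusted p 5.30e-05. It was more negative than in MECs by -2.32, adjusted p 1.84e-04, and than in whole pads by -2.29, adjusted p 1.67e-05. Its cause was not tested.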

How the results depend on the processing

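The count of 311 for PS and IFPS together became 737 with DESeq2, of which 31.2% were higher, and 157 with all 4 lines in the fit. It ranged from 37 to 783 when 1 library was left out. For PS the count of 377 became 952 with DESeq2, 54 with 4 lines and 146 with only PS and wildtype, and ranged from 13 to 1129. For IFPS the count of 1 became 119 with no filter, 365 with DESeq2, 0 with 4 lines (927 at an unadjusted p under 0.05) and 0 with only IFPS and wildtype (1124 unadjusted), and ranged from 0 to 251. For IFPS against PS the count of 24 became 49 with no filter, 303 with DESeq2, 4 with 4 lines and 73 with only those lines, and ranged from 5 to 70. The difference of the effect ranged from 281 to 787 genes against fibroblasts, from 201 to 634 against MECs and from 319 to 1232 against pads. With a replicate block on the title number the count against pads was 485, against 732 without, and those against fibroblasts and MECs were 499 and 497. Of the genes called against pads 371 were shared by both fits. The numbers were not taken as pairing, since that required a correlation of deviations over 0.1 in every pair, and 3 of 9 pairs with fibroblasts, 0 with MECs and 3 with pads reached it. As a hint from the data, the adipocyte library correlated best with its own number in 8, 7 and 8 of the 9. The causes of these shifts were not tested. No value reversed its sign, in fits that reuse the libraries that chose the genes. Of the 264 lower genes DESeq2 also called 264, and the fit of 4 lines 138. Lower genes of the pad-enriched, adipocyte-low class numbered 6 to 99 over the alternatives and those of the MEC-enriched class 15 to 107, and those with no 4-fold difference 11 to 292. Counts of gene lists under the alternatives were not run, since no symbol matched. Depth was similar between the lines, and genes under 1 CPM rest on few counts per library.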
